A study of Mus musculus with 8 samples.

Results

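The genes that give blood and lymph vessel lining cells their identity were followed in whole lung of mice that over-express Fra-2. The set was drawn up by name, with earlier results of these data known, as 35 genes that mark endothelium in general or one vessel bed. Shares over all genes are therefore given below for scale and not as a test. Spots carrying the symbols of the set were found for 34 of the 35, out of 20863 named genes on the array. The level of periaxin (Prx), a capillary gene in the lung, is not analysed here. By role, 14 of the 34 were pan-endothelial, 8 arterial, 3 venous, 5 capillary and 2 lymphatic, and the other 2 were the angiopoietins Angpt1 and Angpt2.

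The samples were lungs of 4 wild-type mice and 4 mice labelled Fra-2 over-expressing (Fra-2 TG), all of C57BL/6 background and 8 weeks of age, and no mouse was labelled as treated. Fra-2 is a member of the AP-1 transcription factors, encoded by Fosl2, and such mice are used to study scarring of the lung and remodelling of its vessels. The promoter that drives the transgene is not given in the sources used here. Each mouse was read on 1 single-colour array, and a level below is the log2 of the normalised intensity of a gene's brightest spot.

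Endothelial cells line every vessel. A shared programme, kept up by transcription factors of the ETS and SoxF families, maintains their junctions and surface receptors, and on top of it Notch signalling favours arterial fate while the nuclear receptor Nr2f2 favours venous fate. Lung capillaries are made of at least a pair of cell types: general capillary cells, which maintain the bed, and large thin aerocytes, which lie against the alveolar surface where gas is exchanged. Tie receptors and their angiopoietin ligands steady the mature vessel wall.

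Median and mean intensities were nearly equal on the 8 arrays, and with 4 arrays in each group precision is limited throughout. Type 2 alveolar cell genes averaged 14.73 to 15.07 in wild-type and 14.73 to 15.03 in transgenic mice, as the lung label asks; cardiac muscle genes were also present, at averages of 11.03 to 12.58 and 9.24 to 11.74. Fosl2 was read by a pair of spots that differed in sign. The brighter lay at 10.12 to 11.01 in wild-type and 9.38 to 10.62 in transgenic mice (limma adjusted p = 0.537 over all named spots), and the dimmer at 3.44 to 5.58 and 6.35 to 7.85 (adjusted p = 0.153), so the dimmer spot alone was higher in every mouse labelled transgenic. In wild-type mice the dimmer spot was a dim signal, on both sides of the median of all spots on all arrays (4.74). Wild-type mouse 4 and transgenic mouse 4 correlated least with their own groups (mean Pearson correlation over all spots 0.966 and 0.971, against 0.973 to 0.975 for the others). For some endothelial genes the difference is also given without 1 of these mice. A gene for which no such value is given may still depend on them.

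No endothelial identity gene passed the test at an adjusted p of 0.05 (limma, Benjamini-Hochberg over all 20863 genes), where 0.216% of all genes passed (0.125% higher and 0.0911% lower). Without adjustment, 6 of the 34 (17.6%) had a limma p under 0.05, against 9.15% of all genes. These were Sox17, Gja4, Emcn, Tie1 and Lyve1, higher in transgenic lung (5 genes, where 5.33% of all genes qualified), and Fibin, lower (1 gene, where 3.82% qualified). The same 6 were also those whose values in the 4 mice of one group all lay outside the values of the other, which held for 6.53% of all genes (3.99% higher and 2.54% lower). Of the 34, 33 lay above the median of all spots in all 8 mice. The fit was repeated with only genes whose mean lay above that median. Then 7 of the 34 had an unadjusted limma p under 0.05, against 11.2% of the genes kept. In 6 the groups did not overlap, against 8% of the genes kept. The median log2 difference over the 34 genes was 0.10, transgenic minus wild type, and 24 of the 34 differences were above 0; the median over all genes was 0.01. In whole lung, fewer or more cells of a type and less or more RNA per cell cannot be told apart.

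**Figure D1:**
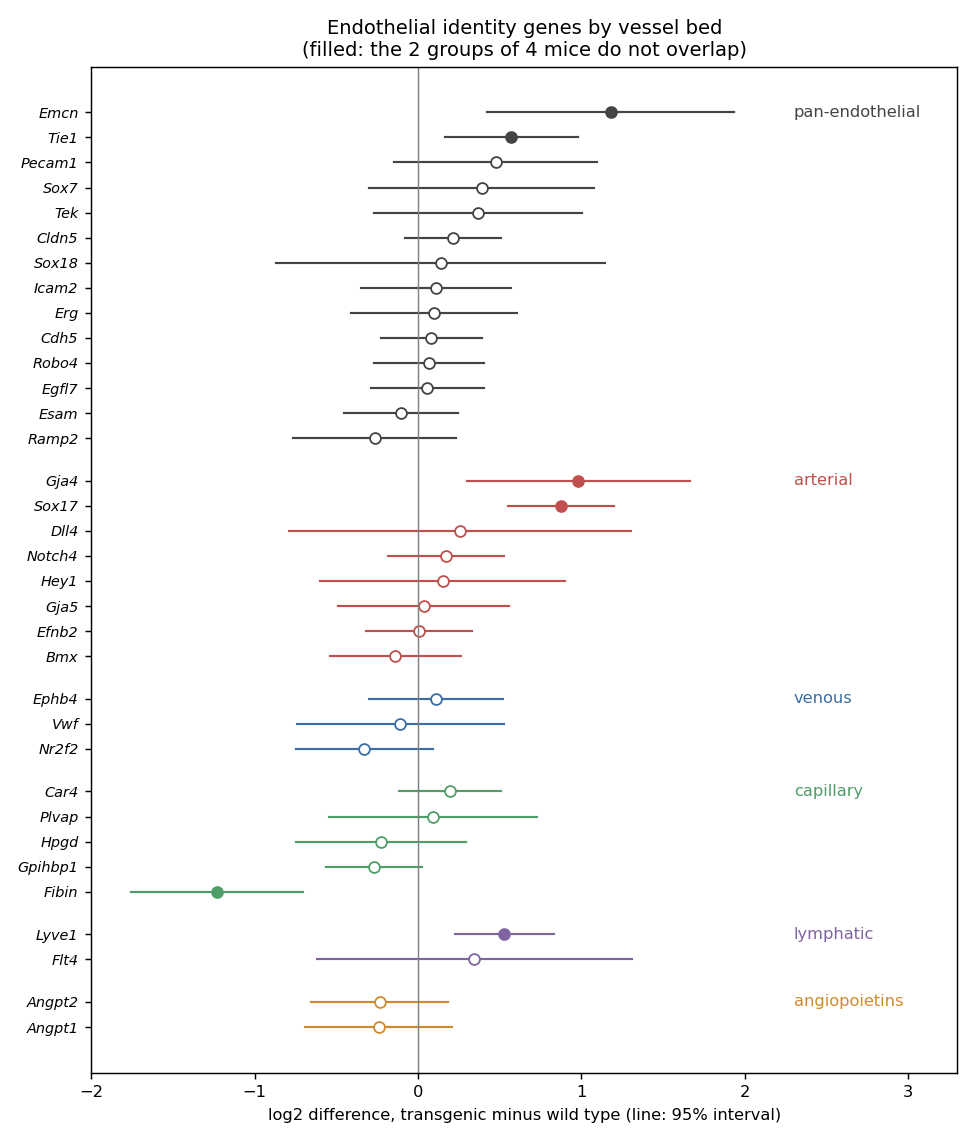
Log2 difference (transgenic minus wild type, horizontal axis) of the 34 measured genes, grouped by vessel bed, with the 95% interval of the limma fit as a line. Filled points are the 6 genes whose groups of 4 mice do not overlap; Fibin at -1.23 is the only one of the 6 to the left of 0.

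For 4 of these 6 genes the 250 bases before a transcription start that RefSeq lists are shown, because Fra-2 binds DNA and these genes separated the groups. For the other genes, Sox17 and Lyve1, the reference used held no such stretch, so they were not searched. The sequences are RefSeq's, build GRCm38.p6, each 5′ to 3′ on the strand of its gene, and capitals mark AGGAAG, a form of the ETS family core, on either strand. Emcn lies on the plus strand (chr3:137340828-137341077), Tie1 on the minus strand (chr4:118489850-118490099), Gja4 on the minus strand (chr4:127314040-127314289) and Fibin on the minus strand (chr2:110362994-110363243). The Emcn gene as RefSeq tabulates it begins just inside its window, so the last bases shown there lie in the gene by that start.
Emcn: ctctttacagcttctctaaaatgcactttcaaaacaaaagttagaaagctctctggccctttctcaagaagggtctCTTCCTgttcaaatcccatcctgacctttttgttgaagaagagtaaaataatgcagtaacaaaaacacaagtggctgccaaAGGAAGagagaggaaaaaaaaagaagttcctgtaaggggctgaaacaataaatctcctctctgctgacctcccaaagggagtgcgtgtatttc
Tie1: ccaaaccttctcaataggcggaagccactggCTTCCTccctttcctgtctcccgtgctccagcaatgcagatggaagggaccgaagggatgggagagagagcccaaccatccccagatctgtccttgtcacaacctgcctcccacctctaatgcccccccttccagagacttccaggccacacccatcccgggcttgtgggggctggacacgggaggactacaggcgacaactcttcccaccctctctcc
Gja4: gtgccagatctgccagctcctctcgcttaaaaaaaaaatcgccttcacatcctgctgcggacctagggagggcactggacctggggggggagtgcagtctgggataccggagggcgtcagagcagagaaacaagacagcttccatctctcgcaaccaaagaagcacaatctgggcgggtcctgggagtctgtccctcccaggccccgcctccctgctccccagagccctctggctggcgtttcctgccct
Fibin: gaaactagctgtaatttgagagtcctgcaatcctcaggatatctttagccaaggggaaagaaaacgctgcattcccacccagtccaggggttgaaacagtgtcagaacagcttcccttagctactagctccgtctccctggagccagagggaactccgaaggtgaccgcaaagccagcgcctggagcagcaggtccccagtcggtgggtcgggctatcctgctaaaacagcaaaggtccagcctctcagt
Emcn held 2 matches and Tie1 1, while the letters AGGAAG were not in the Gja4 and Fibin windows. Over the set, 20 genes had 24 such windows, of which 10 (41.7%) held AGGAAG on either strand, against 29.5% of all 32851 windows. TGANTCA, the AP-1 core, was in 0 of the 24 windows and in 6.75% of all windows. With so few windows, none of them from Sox17 or Lyve1, the 0 is a description only. TGGGAA, a core of the Notch effector RBPJ, was in 7 windows (29.2%, against 21.6% of all), among them those of Tie1 and Fibin. ACAATG, one form of the Sox core, was in 3 (12.5%, against 10.7%). Both strands were searched for each motif and the 4 motifs do not contain each other. A match is a stretch of letters and not a measured binding site.

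Among the arterial genes, Sox17 and Gja4 were higher in all 4 transgenic mice, while Gja5, Efnb2, Notch4 and Bmx had differences between -0.14 and 0.17. Sox17, a SoxF transcription factor needed for arterial differentiation, had levels of 10.28, 10.45, 10.30 and 10.20 in the wild-type lungs of mice 1 to 4 against 10.89, 11.16, 11.29 and 11.38 in the transgenic lungs of mice 1 to 4. The lowest transgenic mouse thus lay above the highest wild-type mouse, and the wild-type values were close together. Group means were 10.31 ± 0.11 and 11.18 ± 0.22 (SD, n = 4 each), 1.83-fold, a log2 difference of 0.87 (SE 0.14, limma adjusted p = 0.0702 over all genes).

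A second, dimmer Sox17 spot gave 9.69, 9.81, 9.27 and 9.16 in wild-type mice and 10.34, 10.72, 10.71 and 10.43 in transgenic mice, again without overlap. Its difference was 1.07 (SE 0.19, limma adjusted p = 0.101 over all named spots). Both spots read the same RNA of the same mice, so the second adds no mouse. The call of the brighter spot turned on the variance model and the treatment of dim signals: Sox17 passed with an offset of 16 or 32 added before the log2 (adjusted p = 0.0249 and 0.0162), with dim genes left out (0.0272), and with an intensity trend in the variance, plain or robust (0.0177 and 0.00883). With 1 mouse left out its difference ran from 0.81 to 0.97 and its limma adjusted p from 0.0852 to 0.256.

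Gja4, a gap junction connexin of arterial endothelium, had levels of 11.45, 11.87, 11.57 and 10.68 in the wild-type lungs of mice 1 to 4 against 12.12, 12.79, 12.66 and 11.92 in the transgenic lungs of mice 1 to 4. The groups were separated by a narrow margin, with wild-type mouse 2 just under transgenic mouse 4. The means of 11.39 ± 0.51 and 12.37 ± 0.42 (SD, n = 4 each) differed by 0.98 (SE 0.30), 1.97-fold (limma adjusted p = 0.357). Without wild-type mouse 4, the lowest of all, the difference was 0.74.

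Gja5, the other main connexin of arteries, had levels of 10.49, 10.0003, 10.21 and 10.83 in the wild-type lungs against 10.40, 10.77, 10.50 and 9.999 in the transgenic lungs. The groups overlapped over nearly their whole range, with a difference of 0.03 and a 95% interval from -0.49 to 0.56 (limma adjusted p = 0.982). Efnb2, the ephrin ligand that marks arterial cells, differed by 0.01 (interval -0.32 to 0.33), Notch4, a Notch receptor of endothelium, by 0.17 (-0.18 to 0.52), and Bmx, a kinase of arterial endothelium, by -0.14 (-0.54 to 0.26). Dll4, the arterial Notch ligand, and Hey1, a Notch target, had wide intervals (-0.79 to 1.30 and -0.60 to 0.90) around differences of 0.26 and 0.15. Leaving out wild-type mouse 4 gave 0.0073 for Dll4 and -0.037 for Hey1, and leaving out transgenic mouse 4 gave 0.69 and 0.44. In both, mouse 4 was the lowest of its group in wild-type and in transgenic mice. Over the 8 arterial genes, 2 did not overlap and 7 differences were above 0, with a median of 0.16; it was 0.03 without transgenic mouse 3 and 0.34 without transgenic mouse 4.

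**Figure D2:**
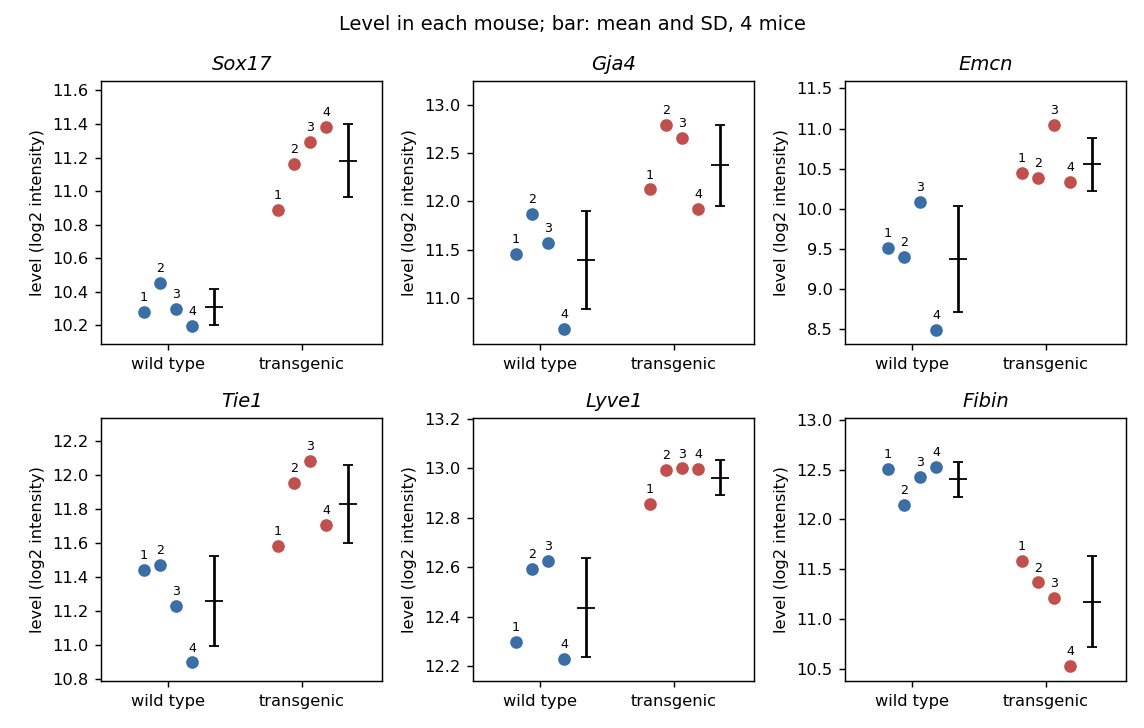
Level (log2 normalised intensity, vertical axes with a separate scale for each gene) in each of 4 wild-type (blue) and 4 transgenic (red) mice, with mouse numbers and the mean and SD of each group. In Sox17, Gja4, Emcn, Tie1 and Lyve1 every transgenic mouse lies above every wild-type mouse, and in Fibin every transgenic mouse lies below.

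Pan-endothelial genes differed by little as a group, with Emcn and Tie1 as the exceptions. Emcn, which encodes the sialomucin endomucin on capillary and venous endothelium, had levels of 9.52, 9.40, 10.09 and 8.49 in the wild-type lungs of mice 1 to 4 against 10.44, 10.39, 11.04 and 10.34 in the transgenic lungs of mice 1 to 4. It is counted here with the pan-endothelial genes and not with the venous or capillary genes below. No values overlapped, but wild-type mice were spread over more than a whole log2 unit, from mouse 4 at the bottom to mouse 3 at the top. The means were 9.38 ± 0.66 and 10.55 ± 0.33 (SD, n = 4 each), 2.26-fold, a difference of 1.18 (SE 0.33, limma adjusted p = 0.315), and 0.88 without wild-type mouse 4.

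Tie1, an orphan receptor that modulates Tie2 signalling, had levels of 11.44, 11.47, 11.23 and 10.90 in the wild-type lungs against 11.58, 11.95, 12.08 and 11.71 in the transgenic lungs. The groups did not overlap, with wild-type mouse 2 close under transgenic mouse 1. The difference was 0.57 (SE 0.18, 1.48-fold, limma adjusted p = 0.370). Its partner Tek, the angiopoietin receptor Tie2, had levels of 11.44, 11.27, 11.43 and 10.46 in the wild-type lungs against 11.65, 11.71, 11.78 and 10.94 in the transgenic lungs. Transgenic mice 1 to 3 lay above every wild-type mouse, while transgenic mouse 4 lay below wild-type mice 1 to 3, and the difference of 0.37 (SE 0.28) did not pass (limma adjusted p = 0.730).

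The angiopoietins lay on the other side of 0 from the Tie receptors. Angpt2, the context-dependent ligand stored in endothelial cells, had levels of 9.63, 9.50, 9.17 and 9.32 in the wild-type lungs against 9.02, 9.06, 8.99 and 9.63 in the transgenic lungs. Transgenic mice 1 to 3 lay below all wild-type mice, and transgenic mouse 4 at the height of the highest of them. The difference was -0.23 (SE 0.18, limma adjusted p = 0.739), and -0.39 without transgenic mouse 4 (adjusted p = 0.506). Angpt1, the Tie2 agonist made mostly by cells around the vessel, differed by -0.24 (SE 0.20, limma adjusted p = 0.751). In the same mice the pericyte list, a source of Angpt1, had a median difference of -0.08 over 8 genes.

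Pecam1 and Cdh5 are the junction proteins by which endothelium is most often identified. Pecam1 had levels of 10.81, 10.43, 10.58 and 9.51 in the wild-type lungs against 10.75, 10.86, 10.99 and 10.64 in the transgenic lungs. The difference of 0.48 (SE 0.27, limma adjusted p = 0.644) was 0.20 without wild-type mouse 4, which stood alone at the bottom; a second spot gave 0.48 as well. Cdh5, VE-cadherin, had levels of 13.08, 12.93, 13.05 and 13.35 in the wild-type lungs against 13.01, 13.21, 13.34 and 13.20 in the transgenic lungs. The 2 groups lay on top of each other, with a difference of 0.08 and a 95% interval from -0.23 to 0.39.

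The other 9 pan-endothelial differences lay between -0.26 (Ramp2, the adrenomedullin receptor subunit) and 0.39 (Sox7, a SoxF factor). Between them were Sox18, the third SoxF factor (0.14), the ETS factor Erg (0.10), the junction genes Esam (-0.10) and Cldn5 (0.22), the guidance receptor Robo4 (0.07), the adhesion molecule Icam2 (0.11) and the secreted factor Egfl7 (0.06). Without transgenic mouse 4, Ramp2 was at -0.061 and Sox7 at 0.63. The limma adjusted p-values of the 9 ran from 0.658 to 0.948. Of the SoxF genes, then, Sox17 separated the groups while Sox7 (interval -0.30 to 1.08) and Sox18 (-0.87 to 1.15) had intervals too wide to leave out a difference of the size seen in Sox17. Cldn5, Ramp2 and Egfl7 lay above 15 on a scale that ends at 16, where a higher level has little room to show. Over the 14 pan-endothelial genes the median was 0.12, from 0.03 without transgenic mouse 3 to 0.22 without wild-type mouse 2, and 12 of the 14 differences were above 0.

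The venous genes did not separate the groups. Nr2f2, the nuclear receptor that specifies veins, had levels of 10.76, 10.46, 10.57 and 10.56 in the wild-type lungs against 10.34, 10.58, 10.34 and 9.78 in the transgenic lungs. Only transgenic mouse 2 reached the wild-type range, and the difference was -0.33 (SE 0.18, limma adjusted p = 0.641), or -0.17 without transgenic mouse 4. Ephb4, the venous receptor for ephrin B2, had levels of 11.32, 11.40, 11.53 and 11.66 in the wild-type lungs against 11.67, 11.83, 11.74 and 11.12 in the transgenic lungs. Transgenic mice 1 to 3 lay above all wild-type mice and transgenic mouse 4 below all of them. The difference was 0.11 (SE 0.18), and a dimmer Ephb4 spot gave the opposite sign (-0.26, SE 0.29), so no direction can be given for Ephb4.

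Vwf, the clotting glycoprotein of large vessels and especially veins, differed by -0.11 (SE 0.28); transgenic mouse 4 lay at 13.73 and the other 7 mice between 14.48 and 14.95. Without that mouse the difference was 0.18. Megakaryocytes and platelets also make Vwf, and in the same mice all 6 genes of the megakaryocyte and platelet list had negative differences (median -0.53), with list averages of 7.97 to 8.05 in wild-type and 7.10 to 7.67 in transgenic mice; their part in the Vwf level was not tested. The median over the 3 venous genes was -0.11, and it turned to 0.18 without transgenic mouse 4.

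In the capillary group Fibin stood apart. Fibin, a secreted protein whose transcript is enriched in lung aerocytes of the mouse, had levels of 12.51, 12.14, 12.43 and 12.53 in the wild-type lungs of mice 1 to 4 against 11.59, 11.37, 11.21 and 10.53 in the transgenic lungs of mice 1 to 4. Every transgenic mouse lay below every wild-type mouse, and transgenic mouse 4 lay furthest down. The means of 12.40 ± 0.18 and 11.17 ± 0.46 (SD, n = 4 each) differed by -1.23 (SE 0.23), 2.34-fold (limma adjusted p = 0.136 over all genes). Without transgenic mouse 4 the difference was -1.01, and over the 8 fits that left out 1 mouse the adjusted p ran from 0.0868 to 0.347. Fibin passed with an offset of 32 before the log2 (limma adjusted p = 0.0473) and with an intensity trend in the variance, plain or robust (0.0337 and 0.0184).

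The other capillary genes differed far less. Car4, a carbonic anhydrase on the surface of aerocytes, had levels of 12.50, 12.53, 12.34 and 12.09 in the wild-type lungs against 12.47, 12.61, 12.68 and 12.50 in the transgenic lungs. The groups overlapped, with a difference of 0.20 (95% interval -0.11 to 0.51), and its second spot gave 0.26. Plvap, which forms the diaphragms of endothelial fenestrae and caveolae, had levels of 14.66, 14.77, 14.74 and 14.08 in the wild-type lungs against 14.70, 14.98, 15.02 and 13.92 in the transgenic lungs. Mouse 4 was the lowest in both groups, and the difference was 0.09 (-0.54 to 0.73). Gpihbp1, the capillary anchor of lipoprotein lipase, differed by -0.27 (-0.56 to 0.03), and Hpgd, which breaks down prostaglandins, by -0.23 (-0.75 to 0.29). Without transgenic mouse 4 the Hpgd difference was -0.02, and a second Hpgd spot gave -0.05 (SE 0.29) over all 8 mice. The median over the 5 measured capillary genes was -0.23, and -0.02 without transgenic mouse 4, in both cases the value of Hpgd.

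Of the lymphatic genes, Lyve1, the hyaluronan receptor, had levels of 12.30, 12.59, 12.62 and 12.23 in the wild-type lungs against 12.86, 12.99, 13.00 and 13.00 in the transgenic lungs. The groups did not overlap and the transgenic mice were close together. Their means, 12.44 ± 0.20 and 12.96 ± 0.07 (SD, n = 4 each), differed by 0.53 (SE 0.13, 1.44-fold, limma adjusted p = 0.246). Flt4, the receptor VEGFR-3 for lymphatic growth factors, was a dim signal, at 6.14, 6.31, 6.28 and 4.43 in wild-type mice and at 6.37, 6.24, 6.23 and 5.70 in transgenic mice. Wild-type mouse 4 lay under the median of all spots on all arrays (4.74), used here as the floor for dim signals, and was the only one of the 34 genes' values to do so. The Flt4 difference of 0.34 (SE 0.42) became -0.11 without that mouse.

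Prox1, the transcription factor that defines lymphatic endothelium, lay near the floor, at 4.58 to 5.08 in wild-type and 4.87 to 5.30 in transgenic mice, and Reln, another lymphatic gene, lay under it in all 8. Pdpn, shared with type 1 alveolar cells, differed by -0.10 (SE 0.14). Of 5 other lymphatic genes measured, 4 had differences above 0 (median 0.34), and Thy1, which T cells share, was the only one without overlap. The list averages were 8.17 to 8.40 in wild-type and 8.50 to 8.56 in transgenic mice. Some macrophages also carry Lyve1: in the macrophage list 6 of 7 differences were above 0 (median 0.28), none of them at an unadjusted p under 0.05, with averages of 10.09 to 11.31 in wild-type and 10.79 to 11.27 in transgenic mice. The other gene of the list, the macrophage scavenger receptor Marco, fell. It lay at 11.57 to 12.44 in wild-type and at 9.54 to 10.12 in transgenic mice (difference -2.08, SE 0.22, limma adjusted p = 0.0105 over all genes). The limma adjusted p of Marco was 0.0525 without transgenic mouse 1 or without transgenic mouse 2, and 0.0853 without both mice numbered 4. With mouse number as a block in the fit it was 0.125. The part of macrophages in the Lyve1 level was not tested.

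Set against the rest of the endothelium in the same mouse, 24 of the 34 differences were below 0. For this, each gene's level was taken relative to the mean of the pan-endothelial genes (itself left out), a comparison chosen after the values were seen and given without a test. The pan-endothelial mean was itself higher in transgenic mice (12.65, against 12.41 in wild type), which moves the relative difference of each gene down. The share of all genes below 0 by this measure is not given here, so the count of 24 is a description only. The groups then did not overlap in 9 of the 34 genes, against 8.91% of all genes. Higher were Emcn (1.01), Gja4 (0.74), Sox17 (0.63) and Lyve1 (0.28), where 0.853% of all genes were higher. Lower were Fibin (-1.47), Nr2f2 (-0.57), Ramp2 (-0.54), Gpihbp1 (-0.51) and Hpgd (-0.47), where 8.06% of all genes were lower. Relative to the other pan-endothelial genes, Tie1 differed by 0.35 and its groups touched. Relative Gpihbp1 lay at 1.57, 1.49, 1.47 and 1.55 in wild-type mice and at 0.96, 0.97, 0.91 and 1.21 in transgenic mice. Relative Nr2f2 lay at -1.69, -2.02, -1.98 and -1.58 and at -2.27, -2.18, -2.54 and -2.56. In both genes the relative values were separated although the levels themselves were not. The higher reference mean is part of these relative differences.

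Both mice numbered 4 carried low values for many endothelial genes. Wild-type mouse 4 was the lowest of its group in 20 of the 34 genes (58.8%) and transgenic mouse 4 in 25 (73.5%), against 36.8% and 38.8% of the 14312 genes above the floor. Both were lowest together in 15 of the 34 (44.1%, against 16.4%). The joint shares were not set against those that the single shares alone would give. They are counts over genes of the same mice and describe these mice only. In Sox18 the levels were 11.05 and 11.41 in these mice and 12.43 to 12.78 in the other 6. With both left out, the groups did not overlap in 13 of the 34 genes, 9 higher and 4 lower (38.2%, against 17.7% of all genes in that fit), and 11 had an unadjusted limma p under 0.05 (against 11% of all genes). The 11 were the 6 named above with Tek (0.33), Ephb4 (0.33) and Erg (0.35) higher and Gpihbp1 (-0.31) and Angpt2 (-0.41) lower. None passed after adjustment in that fit (lowest limma adjusted p = 0.127, Fibin). Both mice numbered 4 were lowest in a larger share of the 34 genes than of all genes. Leaving them out can thus narrow the groups more in the 34, so 38.2% and 17.7% are not compared like for like. Ephb4 is counted by its brighter spot alone. The dimmer Ephb4 spot read 8.87, 8.77 and 8.85 in wild-type mice 1 to 3. It read 8.14, 8.81 and 8.42 in transgenic mice 1 to 3, so no direction can be given for Ephb4 here either.

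**Figure D3:**
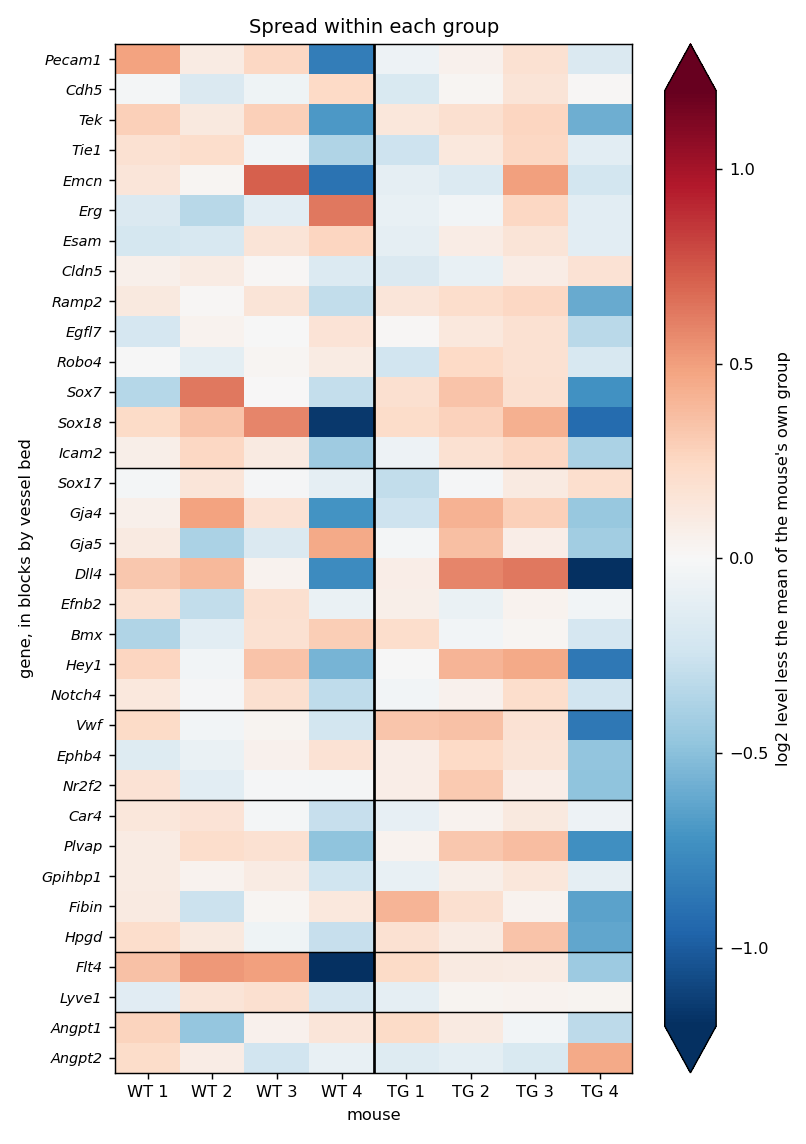
Each cell is the log2 level of a gene in a mouse less the mean of that mouse's own group, so that differences between the groups are removed; genes are in blocks by vessel bed and WT and TG stand for wild type and transgenic. Columns WT 4 and TG 4 are blue (low) in most rows, 20 and 25 of the 34 genes being lowest there.

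Further genes of the same vessel beds came from lists that hold none of the 34, also drawn up with earlier results known. They were compared in the same way. Of 54 measured, 0 passed the adjusted test (limma), an unadjusted p under 0.05 was reached by 12 higher and 3 lower genes (5.33% and 3.82% of all genes), and 10 did not overlap, 9 of them higher (6.53% and 3.99% of all genes). The median over the 54 was 0.06. Among general capillary genes, Aplnr, the apelin receptor, had levels of 8.75, 9.12, 8.32 and 8.31 in the wild-type lungs against 9.84, 10.42, 10.58 and 9.90 in the transgenic lungs, without overlap (difference 1.56, SE 0.25, limma adjusted p = 0.0684). Of the 7 general capillary genes 5 had differences above 0, with a median of 0.39. Besides Aplnr these were Sema3c (0.67, without overlap), Cd93 (0.41), Kit (0.39) and Cd36 (0.13). Ptprb (-0.10) and Lpl (-0.14) lay below 0. Capillary genes of the main set did not share one direction either, with Gpihbp1 at -0.27 and Plvap at 0.09.

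Among the 6 further aerocyte genes 5 had differences below 0, with a median of -0.38. Apln, the apelin ligand made by aerocytes, had levels of 9.98, 10.76, 10.16 and 10.52 in the wild-type lungs against 9.01, 9.72, 9.29 and 9.28 in the transgenic lungs, without overlap (difference -1.03, SE 0.22, limma adjusted p = 0.185). Chst1 differed by -0.55, the endothelin receptor Ednrb by -0.49 and the T-box factor Tbx2 by -0.28, with overlapping groups, Emp2 by -0.01 and Nckap5 by 0.12. Transgenic mouse 4 lay at 10.90 in Tbx2. The other transgenic mice lay at 11.86 to 12.03, inside the wild-type range of 11.70 to 12.19. For Ednrb that mouse lay at 9.25, the other transgenic mice at 10.02 to 10.14 and wild-type mice at 9.96 to 10.84. The median of this list without transgenic mouse 4 is not given here and may depend on that mouse. Beside Fibin, Apln was the only one of the aerocyte genes without overlap, and Car4, the surface marker of these cells, lay slightly higher. In the same mice 5 of 6 type 1 alveolar genes had differences below 0 (median -0.13), with list averages of 13.41 to 13.76 in wild-type and 12.99 to 13.64 in transgenic mice.

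**Figure D4:**
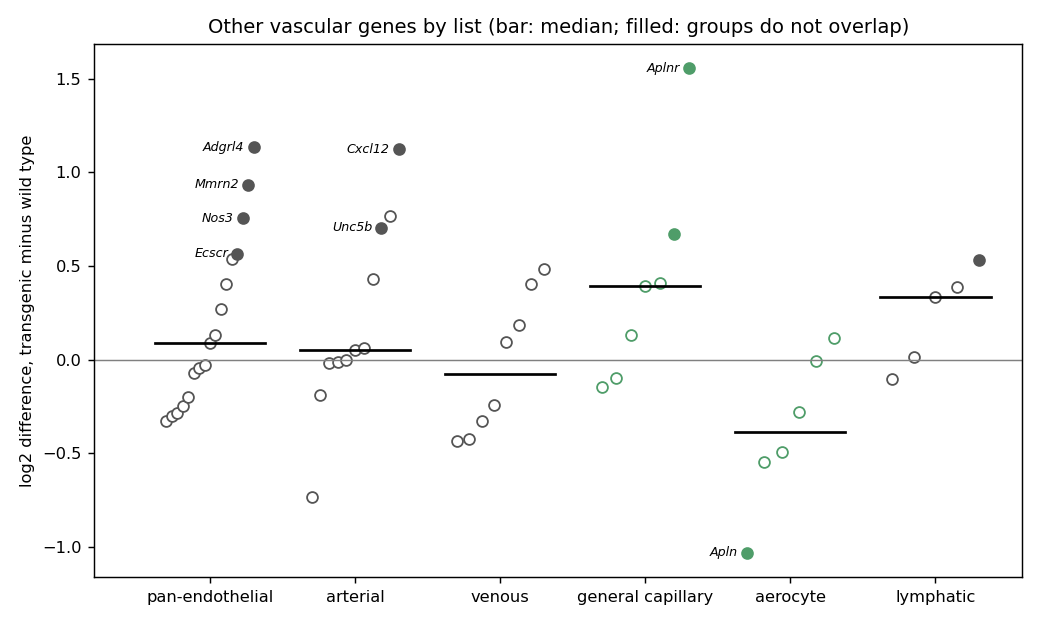
Log2 difference (transgenic minus wild type, vertical axis) of 54 further vascular genes in 6 lists, 1 point per gene, with the median of each list as a bar; filled points are genes whose groups do not overlap, and the 8 genes with the smallest p are named. The aerocyte list has its median at -0.38 and the general capillary list at 0.39.

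Of the further arterial genes, Cxcl12, the chemokine of arterial endothelium, had levels of 12.91, 12.90, 13.03 and 12.29 in the wild-type lungs against 13.87, 14.16, 14.26 and 13.34 in the transgenic lungs, and lay higher in every transgenic mouse (1.12, SE 0.25, limma adjusted p = 0.193). Unc5b, a netrin receptor of arterial cells, lay at 9.31 to 9.65 and at 9.82 to 10.51 (0.70, SE 0.17). Over the 11 arterial genes of this list the median was 0.05. Of the 17 further pan-endothelial genes 4 did not overlap, all higher, where 3.99% of all genes did so. They were Nos3, the endothelial nitric oxide synthase, at 11.06 to 11.30 and 11.65 to 12.16 (0.76, SE 0.14, limma adjusted p = 0.126), the adhesion receptor Adgrl4 (1.14, SE 0.28), the matrix protein Mmrn2 (0.93, SE 0.21) and the surface protein Ecscr (0.57, SE 0.15). The other 13 included Kdr, the main VEGF receptor, at -0.04 (SE 0.17), and the median over the 17 was 0.09. The 8 further venous genes had a median of -0.07 and none without overlap. Nos3 and Aplnr passed in some of the other fits (lowest limma adjusted p = 0.0193 and 0.00703), as did Apln, Cxcl12 and Mmrn2 (0.0396, 0.00699 and 0.0408); Unc5b, Adgrl4 and Ecscr passed in none.

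Genes of other cells of the vessel wall and tissue were compared in the same mice. All 8 smooth muscle genes had differences below 0 (median -0.38), with list averages of 10.50 to 10.79 in wild-type and 9.96 to 10.46 in transgenic mice. All 8 immediate early genes, which respond to handling of tissue, were also below 0 (median -0.71), at averages of 10.15 to 10.93 and 9.49 to 10.15. Of 6 T cell and thymus genes 4 were above 0 (median 0.74), at averages of 5.87 to 6.55 and 6.65 to 7.22; the other two, Rag1 (-0.33) and Ptcra (-0.05), had group means under the floor. The part of these shifts in the endothelial values was not tested.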

How the data were processed

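RNA of 8 lungs was labelled with Cy5 and read on single-colour Agilent arrays, per the labels' protocols. For 62976 spots the deposited unit is intensity, not log-transformed. R 2.15.1 and limma 3.14.4 are named in the submitters' processing notes, without the steps they were used for. Median (26.6) and mean (1203) intensities are nearly equal between arrays; how the values were scaled is not stated in the labels. Symbols of 31465 named spots came from the platform annotation, updated by RefSeq accession (29050 matched, 2933 replaced), giving 20863 genes. The spot with the highest mean over 8 arrays stood for a gene. Log2 intensities without offset were fitted in R 4.3.3 with limma 3.58.1 (lmFit, eBayes; with the data.table package, version 1.17.8), group as the only term, and p-values adjusted by Benjamini-Hochberg over all genes with threshold 0.05; intervals are 95%. The fit was tested on simulated data. Figures used Python 3.11.15 and matplotlib 3.10.9. Groups and mouse numbers come from the labels, which name 4 animals per group.

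The members, vessel beds, further lists and named genes were chosen with earlier results of these data known. Per-mouse values are given for genes with an unadjusted p under 0.05 or groups without overlap, and for chosen markers of each bed; of the further lists the 8 genes with the smallest p are named by rule, the others after their values were seen. Same-numbered mice did not deviate together in every pair (correlations of -0.01 to 0.15 over genes above the floor; 0.14 to 0.45 over the 34 endothelial genes alone), so numbers were not taken as pairs. Alternatives were offsets, 2 scalings, a filter on dim genes, 2 spot rules, 2 variance models, a replicate block, each mouse left out, and both mice numbered 4 left out; the last joined with an offset of 32 was added after the data were seen.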

Additional observations from a re-analysis of the deposited data

Results flagged for a closer look

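In 11 of 68 sets of 4 mice (34 genes, 2 groups) a single mouse lay far from the other 3, by a test that flags about 5% of sets by chance. Transgenic mouse 4 was that mouse in 6. It lay low in Tek (10.94, the others 11.65 to 11.78), Ramp2 (14.90, the others 15.65 to 15.75), Sox7 (10.60, the others 11.52 to 11.68), Sox18 (11.41, the others 12.56 to 12.76) and Vwf (13.73, the others 14.76 to 14.95), and high in Angpt2 (9.63, the others 8.99 to 9.06). Wild-type mouse 4 lay low in Plvap (14.08, the others 14.66 to 14.77), Gpihbp1 (13.69, the others 13.97 to 14.02) and Flt4 (4.43, the others 6.14 to 6.31). Transgenic mouse 3 lay high in Emcn (11.04, the others 10.34 to 10.44). Transgenic mouse 1 lay low in Lyve1, at 12.86 against 12.99 to 13.00, a gap that is small in size because the other 3 mice were nearly equal.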

How the results depend on the processing

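Each result was recomputed under 20 other settings. The adjusted count of endothelial genes, 0 in the reported fit, became 1 with an offset of 16 or with dim genes left out, and 2 with an offset of 32, with an intensity trend, with a robust trend, and with the offset of 32 joined to leaving out both mice numbered 4; Sox17 was the 1, and Sox17 and Fibin the 2. Over all genes the 45 calls became 80 and 88 (offsets 16 and 32), 71 (dim genes left out), 85 and 118 (trend, robust trend), 17 (both mice numbered 4 left out), 200 (that with the offset of 32) and 17 to 38 with 1 mouse left out. The replicate block gave 5 calls over all genes, 0 endothelial genes past the adjusted threshold and 7 at an unadjusted p under 0.05; numbers are not known to pair the mice. Leaving out both mice numbered 4, without and with the offset, gave 11 and 13 endothelial genes at an unadjusted p under 0.05 (8 and 10 higher, 3 and 3 lower) and 13 and 13 without overlap. Lower genes at that p were 2 in place of 1 with the offset of 32, dim genes left out, trend and robust trend, and 1 to 2 with 1 mouse left out. The cause of these changes was not tested.

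Signs turned in the following genes, none of them past any threshold in the reported fit. Efnb2 went to -0.025 with median scaling, -0.0017 with cyclic loess, and -0.011 and -0.011 without both mice numbered 4 (without and with the offset). In those last fits Esam went to 0.023 and 0.023, Bmx to 0.027 and 0.025, and Vwf to 0.10 and 0.10. With the mean of all spots Bmx was 0.19 and Ephb4 -0.076, and with the most variable spot 0.51 and -0.26. With 1 mouse left out the range crossed 0 for Erg (-0.013 to 0.31), Egfl7 (-0.0097 to 0.17), Robo4 (-0.013 to 0.14), Sox18 (-0.25 to 0.45), Icam2 (-0.034 to 0.24), Gja5 (-0.093 to 0.18), Efnb2 (-0.091 to 0.071), Hey1 (-0.037 to 0.44), Vwf (-0.23 to 0.18), Plvap (-0.068 to 0.34) and Flt4 (-0.11 to 0.52). Sox17, Gja4, Emcn, Tie1, Lyve1 and Fibin kept their sign in all 20.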

Other observations

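Megakaryocyte and platelet genes, listed because these cells share Vwf and other genes with endothelium, lay lower in transgenic lung in 6 of 6 cases, with 4 at an unadjusted limma p under 0.05 (3.82% of all genes were lower at that p) and 0 past the adjusted test (0.0911% of all genes). Gp9, a subunit of the platelet receptor for von Willebrand factor, had levels of 8.52, 8.70, 8.74 and 8.92 in the wild-type lungs against 7.38, 7.40, 7.69 and 8.33 in the transgenic lungs, without overlap (difference -1.02, SE 0.22, limma adjusted p = 0.193). Ppbp, a platelet chemokine, lay at 9.94 to 10.24 and at 9.03 to 9.61 (-0.74, SE 0.16, limma adjusted p = 0.193). Both were named after their values were seen.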
